A study of Rattus norvegicus with 11 samples.

Results

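The 10 genes described here belong to the growth hormone, prolactin and insulin-like growth factor (IGF) axis of rat liver: the receptors Ghr and Prlr, the signal transducer Stat5b, the feedback genes Socs2 and Cish, the hormone Igf1, and Igfals, Igfbp1, Igfbp2 and Igfbp3, whose proteins carry IGFs in blood. They were chosen as the probe sets whose single gene symbol in the platform annotation was 1 of these 10 symbols. All 10 were on the array, among 14218 genes with such a probe set, through 17 probe sets, and all 17 lay above the filter on low signal. RNA from the livers of 11 Wistar rats was hybridised to 11 Affymetrix arrays, 1 per animal, to ask how the drug mequindox, a quinoxaline N-oxide antibacterial, changed expression in this tissue. There were 3 control animals (numbers 1, 2 and 9) and 8 animals given the high dose (numbers 2, 3, 4, 5, 6, 8, 10 and 11). All were labelled week 9 of age except high-dosed animal 8, labelled week 10. The mass dose, the length of treatment, the sex of the rats and what the controls received were not stated in the labels used here. The study took these groups to arrays after seeing a principal component analysis of liver extracts and clinical chemistry.

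Growth hormone from the pituitary binds its receptor on hepatocytes and, through the kinase Jak2, activates Stat5b, which raises Igf1 and Igfals and also raises Socs2 and Cish, which damp the signal. Most IGF-I in blood is held in a complex of IGF-I, the binding protein encoded by Igfbp3 and the acid-labile subunit encoded by Igfals, while Igfbp1 and Igfbp2 encode smaller carriers that respond to insulin and feeding. In rat liver the prolactin receptor is known to be higher in females, and the pattern of growth hormone release differs between the sexes and sets many liver genes.

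Prlr fell by 0.49 on the log2 scale in the high-dosed animals and Igfbp2 rose by 0.69, while Igf1 and Ghr fell by 0.13 and 0.14. The fit was limma on log2(intensity + 55.26), with p-values adjusted by the Benjamini-Hochberg method over all 10714 genes tested and a call at an adjusted p below 0.05. A gene was represented by its brightest probe set, and errors of log2 fold changes are standard errors with 3 control and 8 high-dosed animals. The labels gave 1 animal per array, so the p-values measure the spread between animals. Of the 10 genes 1 rose, 3 fell and 6 did not pass, where 10.6% of all genes tested were called, 7.91% as higher and 2.74% as lower. In 9 of the 10 the log2 fold change was below 0, as it was for 46.1% of all genes tested, and the median was -0.17 beside 0.0174 over all genes tested. In 2 of the 10 genes, Prlr and Igf1, the groups did not overlap, with the high-dosed animals lower, as in 3.37% of genes tested. An unadjusted limma p below 0.05 was common among all genes: Igfbp3, at 0.034, ranked 2351 of the 10714 tested.

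The calls of all 4 genes depended on single controls, and those of Ghr and Igf1 also on single high-dosed animals and on settings. Without control 1 Prlr was the 1 gene of the 10 called, without control 2 it was Igfbp2, and without control 9 Ghr and Prlr were called. Over all genes, 325 were called without control 1 and 759 without control 2, against 1141 with every animal. Leaving out high-dosed animal 3, 4, 5, 6, 8 or 11 left 2 of the 10 called, Prlr and Igfbp2, and so did quantile normalization, median centring of the arrays, no filter and no variance trend. Among animals numbered 6 or lower (2 controls, 5 high-dosed), and without high-dosed animals 8, 10 and 11, the 2 called were again Prlr and Igfbp2. Within numbers 8 and above 1 control remained. The log2 fold changes there were -0.413 for Prlr, 0.57 for Igfbp2, -0.198 for Igf1 and -0.071 for Ghr.

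**Figure D1:**
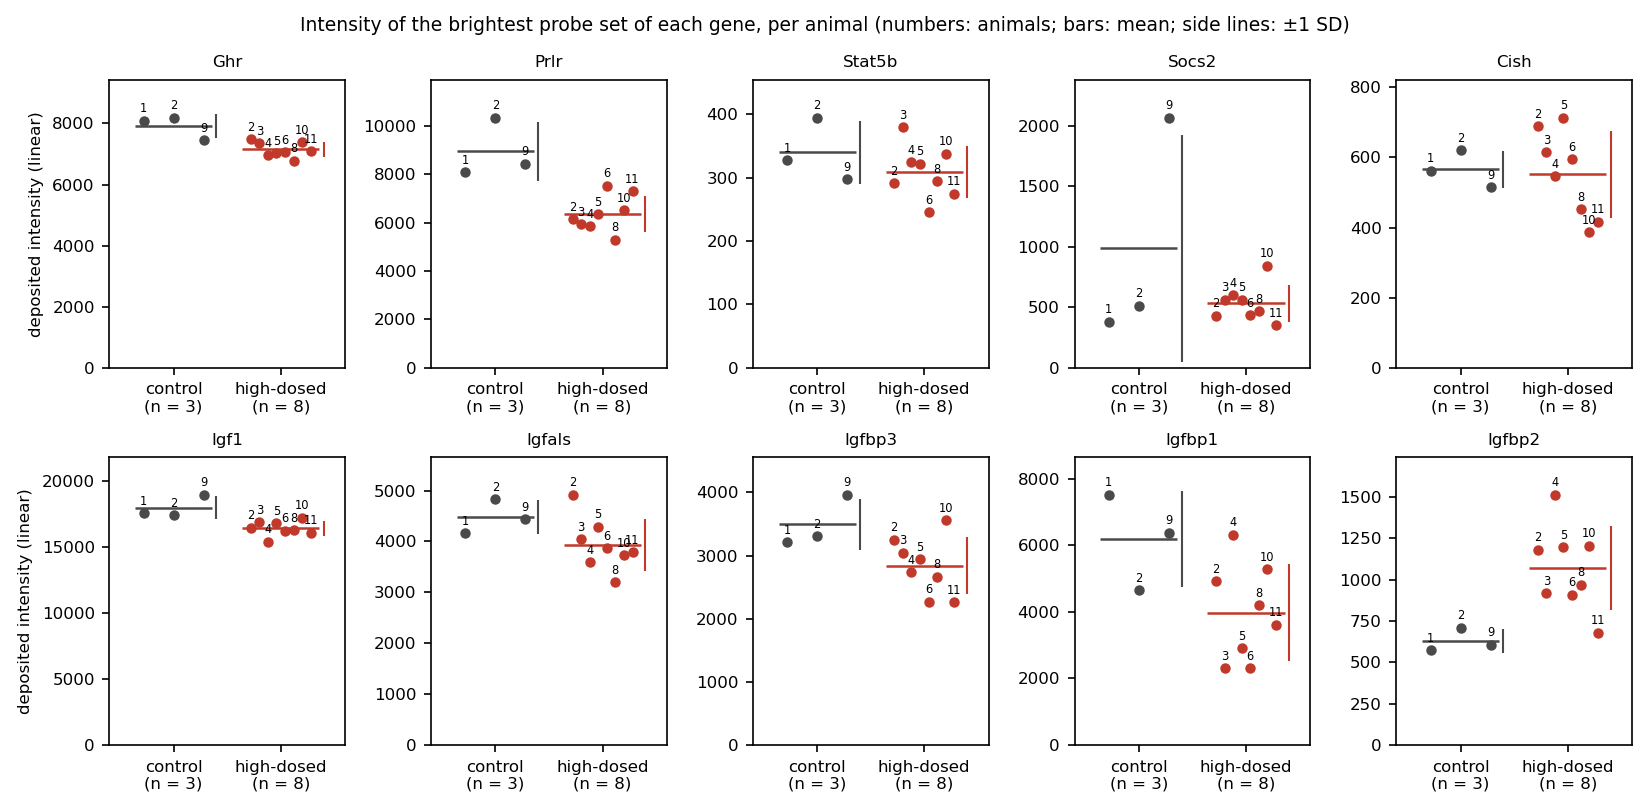
Deposited linear intensity (y axis, from 0) of the brightest probe set of each of the 10 genes in control (grey, n = 3) and high-dosed (red, n = 8) animals. Points are single animals with their numbers, horizontal bars are group means and the side lines span 1 SD on each side. Prlr and Igf1 are the panels without overlap of the groups, and control 9 stands apart for Socs2 at 2066.

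The stretches before the start sites of members are shown as a description, with short motifs marked. These were the palindrome bound by STAT5 (TTCNNNGAA), the E-box CACGTG, and the insulin response element of Igfbp1 (CAAAACA, or TGTTTTG on the other strand). RefSeq promoter windows of build GRCr8 were found for 9 of the 10 genes, Prlr having 2 start sites; the exception was Socs2. The 250 bases before each start were searched on both strands. Of the 10 windows, 6 held a match, and these are printed 5′ to 3′ on the gene's strand with the matches in capitals. The windows of Ghr, Igfals, Igfbp3 and Stat5b held none and are not shown.
Prlr first start, GRCr8 chr2:60861515-60861764, plus strand: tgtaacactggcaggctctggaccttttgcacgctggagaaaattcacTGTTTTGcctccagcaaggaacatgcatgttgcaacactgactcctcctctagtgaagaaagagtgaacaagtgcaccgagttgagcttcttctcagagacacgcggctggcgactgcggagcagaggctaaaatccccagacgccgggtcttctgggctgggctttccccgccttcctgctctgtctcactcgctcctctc
Prlr second start, GRCr8 chr2:60909409-60909658, plus strand: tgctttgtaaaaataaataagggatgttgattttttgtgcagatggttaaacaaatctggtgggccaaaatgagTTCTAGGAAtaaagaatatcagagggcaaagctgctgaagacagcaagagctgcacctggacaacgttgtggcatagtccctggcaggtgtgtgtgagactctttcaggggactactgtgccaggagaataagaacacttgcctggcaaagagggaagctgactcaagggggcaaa
Igf1, GRCr8 chr7:24172282-24172531, plus strand: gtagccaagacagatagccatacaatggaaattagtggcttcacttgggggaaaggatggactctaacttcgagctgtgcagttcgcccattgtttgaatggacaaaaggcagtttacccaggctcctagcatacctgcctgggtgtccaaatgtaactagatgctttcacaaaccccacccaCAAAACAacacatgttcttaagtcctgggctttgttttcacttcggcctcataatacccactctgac
Igfbp1, GRCr8 chr14:86261027-86261276, plus strand: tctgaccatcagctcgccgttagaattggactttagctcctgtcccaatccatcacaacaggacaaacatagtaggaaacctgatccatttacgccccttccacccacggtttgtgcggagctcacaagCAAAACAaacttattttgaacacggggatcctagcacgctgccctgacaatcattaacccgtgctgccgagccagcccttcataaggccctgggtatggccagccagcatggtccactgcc
Igfbp2, GRCr8 chr9:81864561-81864810, plus strand: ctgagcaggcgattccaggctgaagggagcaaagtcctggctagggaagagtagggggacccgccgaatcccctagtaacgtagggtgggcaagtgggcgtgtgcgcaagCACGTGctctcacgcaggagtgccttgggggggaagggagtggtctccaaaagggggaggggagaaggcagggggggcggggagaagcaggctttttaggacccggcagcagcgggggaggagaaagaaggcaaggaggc
Cish, GRCr8 chr8:116850719-116850968, plus strand: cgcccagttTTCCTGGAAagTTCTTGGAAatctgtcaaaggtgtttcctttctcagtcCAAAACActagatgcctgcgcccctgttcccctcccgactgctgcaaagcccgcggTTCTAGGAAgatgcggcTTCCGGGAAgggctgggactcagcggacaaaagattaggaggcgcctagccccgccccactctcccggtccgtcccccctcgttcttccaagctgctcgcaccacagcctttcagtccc

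Of all 33469 windows of this length, 7.67% held TTCNNNGAA, 5.59% CACGTG and 5.46% CAAAACA or TGTTTTG. The Cish window held 4 matches to TTCNNNGAA, starting 241, 230, 136 and 119 bases before the start site, and the second Prlr window held 1, starting 176 bases before. The insulin response letters began 121 bases before the start of Igfbp1, 67 before that of Igf1, 192 before that of Cish and 202 before the first start of Prlr. The E-box of Igfbp2 began 140 bases before its start. No matches overlapped each other. These are letter matches and carry no measurement of binding.

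Prlr, the receptor for prolactin, had the smallest adjusted p of the 10 genes. On its brightest probe set the controls stood at 8092 (animal 1), 10352 (animal 2) and 8441 (animal 9), and the high-dosed animals ran from 5306 to 7535 with a median of 6256. Every high-dosed animal lay below every control, with high-dosed animal 8 the lowest and animal 6 the highest of the treated group. Mean intensity was 8962 ± 1217 (SD, n = 3) for controls against 6374 ± 744 (SD, n = 8) for treated animals. This is a log2 fold change of -0.49 ± 0.10, or 1.40-fold lower, with limma adjusted p = 0.0109.

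The other probe sets of Prlr gave the same picture. On the second brightest probe set controls were at 6134, 7918 and 5979, and high-dosed animals ran from 2942 to 5316 with a median of 4035. On the dimmest probe set controls were at 5071, 5504 and 3856, and high-dosed animals ran from 2277 to 3517 with a median of 3122. The groups did not overlap on any of the 3, where 3.32% of all probe sets tested had groups without overlap and lower in high-dosed animals. In the fit over all 18625 probe sets, where 6.92% were called and 2.29% were called as lower, the 3 Prlr probe sets had log2 fold changes of -0.49, -0.66 and -0.64 and adjusted p of 0.0133, 0.0256 and 0.0126. High-dosed animal 2 was the lowest of the treated animals on the second of these probe sets and animal 6 on the third, so the order of the treated animals differed between probe sets. Without control 2, the animal with the highest signal on all 3, the gene's value was -0.38 and its call was lost (limma adjusted p = 0.0547), as it was within numbers 8 and above (-0.413, limma adjusted p = 0.184).

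Ghr, the growth hormone receptor, had 2 probe sets that differed in brightness and in spread. On the brighter one the controls were at 8091, 8194 and 7449, and the high-dosed animals ran from 6786 to 7491 with a median of 7080. High-dosed animal 2 stood just above control 9, and the other 7 high-dosed animals were below every control. Its log2 fold change was -0.14 ± 0.042, 1.11-fold lower, with limma adjusted p = 0.0461 over genes and 0.0619 over probe sets. On the dimmer one controls were at 1448, 1399 and 1148 and high-dosed animals ran from 590 (animal 2) to 1720 (animal 10), spanning both sides of the controls. There the log2 fold change was -0.07 with a 95% interval from -0.58 to 0.45 (limma adjusted p = 0.893 over probe sets). As the mean of both probe sets, the gene was at -0.107 and not called (limma adjusted p = 0.636). It was called in 7 of the 24 other settings, in which its value ran from -0.187 to -0.071.

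**Figure D2:**
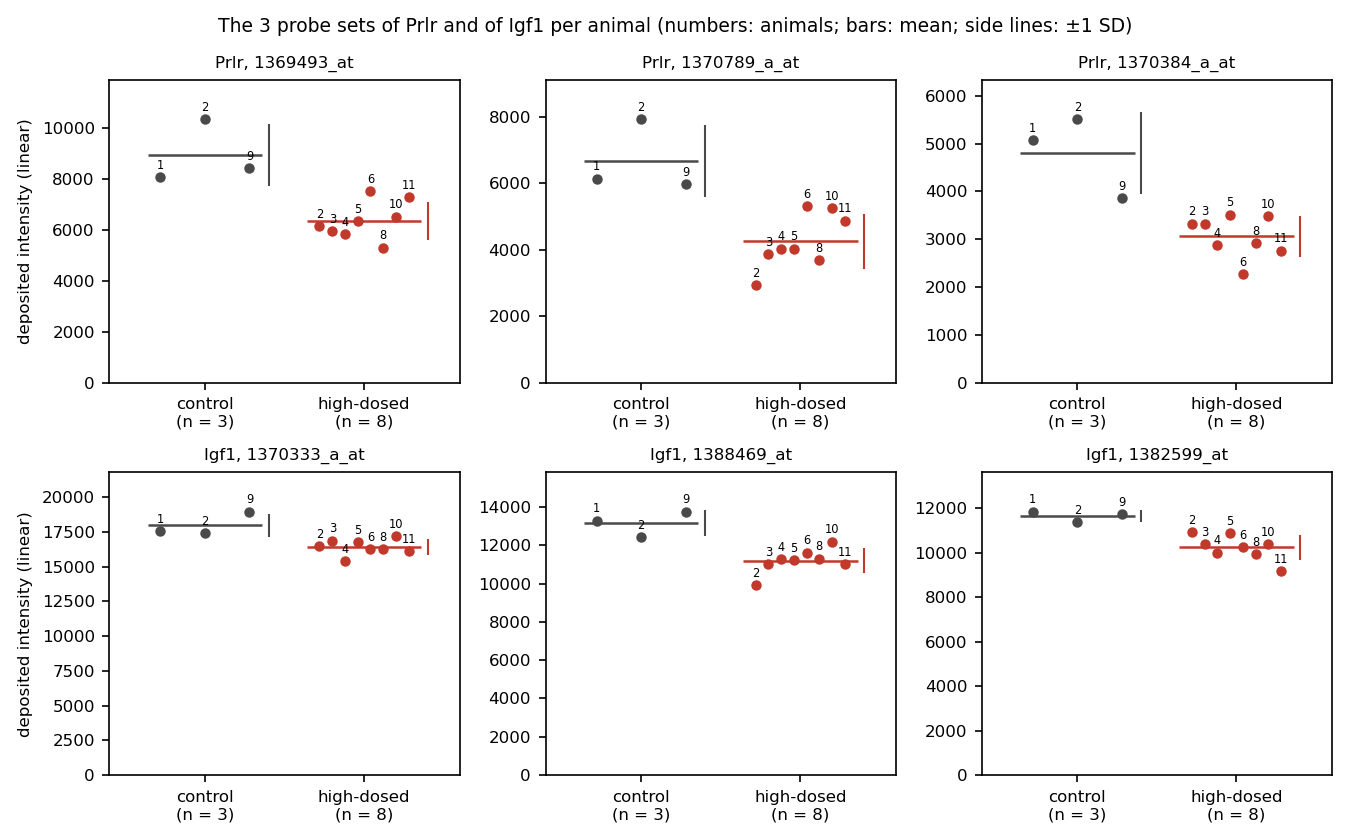
Deposited linear intensity (y axis, from 0) of the 3 probe sets of Prlr (upper row) and of Igf1 (lower row) in control (grey, n = 3) and high-dosed (red, n = 8) animals, with animal numbers, group means as bars and 1 SD on each side as side lines. On all 6 probe sets every high-dosed animal lies below every control. The highest high-dosed and lowest control animals are at 7535 and 8092 on the first Prlr probe set and at 17218 and 17414 on the first of Igf1.

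The genes that carry and damp the receptors' signal did not pass. Stat5b, the transcription factor that both receptors activate, was at 327, 395 and 297 in controls and from 245 to 379 in high-dosed animals with a median of 308. The ranges overlapped widely, and the log2 fold change was -0.12 with a 95% interval from -0.35 to 0.12 (limma adjusted p = 0.540).

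Socs2, a STAT5-induced inhibitor of growth hormone signalling, was read by 1 probe set and turned on 1 control. Controls 1 and 2 were at 380 and 512, and control 9 was at 2066. The high-dosed animals ran from 352 (animal 11) to 844 (animal 10) with a median of 514, so that control 9 lay above all of them and the other 2 controls lay among them. The log2 fold change was -0.50 ± 0.37, with a 95% interval from -1.30 to 0.31 (limma adjusted p = 0.446). Without control 9 it was 0.202 (limma adjusted p = 0.627). The spread of Socs2 around its group means, an SD of 0.655 on the log2 scale, was larger than that of 99.5% of genes tested or equal to it.

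Cish, an inhibitor of the same family, differed more among treated animals than between groups. Its brighter probe set was at 562, 620 and 515 in controls and from 387 to 714 in high-dosed animals with a median of 571. High-dosed animals 10, 11 and 8 stood lowest at 387, 416 and 452, below all 3 controls, while animals 2 and 5 at 688 and 714 stood above them. The arrays of animals 10, 11 and 8 also had the lowest median intensities of the 11, from 149 to 153, against 159.3 to 186.6 on the others, and the part of this in their Cish values was not tested. The log2 fold change was -0.06 with a 95% interval from -0.41 to 0.29 (limma adjusted p = 0.860), and without animals 8, 10 and 11 it was 0.144 (limma adjusted p = 0.416). On the dimmer probe set the controls were at 255, 216 and 176 and the high-dosed animals at 159 to 249, with animals 11, 8 and 10 again the 3 lowest at 159, 181 and 197.

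Igf1, the hormone through which growth hormone acts on growth, was lower by a small amount on each of its 3 probe sets. On the brightest probe set controls stood at 17578, 17414 and 18963 and high-dosed animals from 15420 to 17218 with a median of 16366. The groups did not overlap, but high-dosed animal 10 lay close under control 2. Its log2 fold change was -0.13 ± 0.037, 1.10-fold lower (limma adjusted p = 0.0419 over genes and 0.0547 over probe sets). On the second brightest probe set controls were at 13290, 12412 and 13753 and high-dosed animals from 9930 to 12184. On the dimmest probe set controls were at 11834, 11359 and 11735 and high-dosed animals from 9167 to 10930. The groups did not overlap on these either, and both passed over all probe sets, at -0.23 ± 0.052 and -0.19 ± 0.048 (limma adjusted p = 0.0203 and 0.0369). The gene was called in 8 of the 24 other settings, 1 of them the mean of its 3 probe sets (-0.183, limma adjusted p = 0.00899). Without control 9 the brightest probe set was at -0.092 (limma adjusted p = 0.176).

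Some markers of other liver cells rose, 3 of them endothelial, and most did not pass. Of all genes tested, 7.91% were called as higher. Of 11 measured markers of Kupffer cells and macrophages 10 had a log2 fold change above 0, 1 rose (Mrc1), and their summed intensity was 24320 to 32720 in controls and 31316 to 41947 in high-dosed animals, with overlap. For 12 endothelial markers, of which 10 were above 0 and 3 rose (Emcn, Pecam1 and Stab2), the sums were 13970 to 16047 and 16084 to 17773, without overlap. Of 15 hepatocyte markers 5 were above 0 and 10 below; Apoa1 rose (log2 fold change 0.35, limma adjusted p = 0.0153) and Asgr1 fell (-0.18, limma adjusted p = 0.0242), and the groups overlapped for Apoa1 and not for Asgr1. Their sum was 278753 to 281252 in controls and 275931 to 286649 in high-dosed animals. None of these markers was listed at the lowest value on any array. At an unadjusted limma p below 0.05 were 6 of the 11 macrophage, 8 of the 12 endothelial and 3 of the 15 hepatocyte markers. Such values were common over all genes, where Igfbp3, at an unadjusted limma p of 0.034, ranked 2351 of the 10714 tested. Of the other lists 0 of 12 stellate markers passed (3 at an unadjusted limma p below 0.05), 0 of 5 lymphocyte and blood markers (0 at an unadjusted p below 0.05) and 1 of 2 bile duct markers, Epcam, which rose. In RNA from whole tissue, fewer cells of a type and less RNA per cell cannot be told apart. The part of these markers in the small differences of Igf1 and Ghr was not tested.

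The partners of IGF-I in its large complex of the blood, Igfals and Igfbp3, did not pass. Igfals, the acid-labile subunit, was at 4163, 4833 and 4438 in controls and from 3198 to 4916 in high-dosed animals with a median of 3825. High-dosed animal 2 was above every control and animal 5 lay among them, and the other 6 were below. The log2 fold change was -0.19 with a 95% interval from -0.41 to 0.02 (limma adjusted p = 0.252).

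Igfbp3, the main IGF carrier of blood, is made in liver largely by cells other than hepatocytes. Its brighter probe set was at 3215, 3307 and 3963 in controls and from 2258 to 3561 in high-dosed animals with a median of 2839. High-dosed animals 10 and 2 overlapped the controls and the other 6 lay below. The log2 fold change was -0.30 with a 95% interval from -0.58 to -0.03, which did not pass after adjustment (limma adjusted p = 0.154). The other probe set was at -0.23 (limma adjusted p = 0.208 over probe sets). The endothelial marker sums were higher in every high-dosed animal than in any control, but by a narrow margin. High-dosed animal 4, at 16084, stood close above control 2, at 16047. The macrophage sums overlapped, and the part of both kinds of marker in the Igfbp3 value was not tested.

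Igfbp1, a carrier made by hepatocytes and suppressed by insulin, varied more than nearly all genes. Controls were at 7521, 4653 and 6384, and high-dosed animals ran from 2307 to 6324 with a median of 3906, a span of 2.74-fold. High-dosed animals 3, 5 and 6 were lowest at 2310, 2902 and 2307, and animals 4, 10 and 2, at 6324, 5277 and 4918, overlapped the controls. The log2 fold change was -0.69 ± 0.29, with a 95% interval from -1.31 to -0.07, and did not pass (limma adjusted p = 0.151). Its SD around the group means, 0.504 on the log2 scale, was at or above that of 99% of genes tested. It was not called in any of the 24 other settings, where it ran from -0.878 to -0.534.

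Igfbp2, a carrier raised in fasting and low-insulin states, was the 1 gene of the 10 that rose. Controls were at 572, 710 and 607, and high-dosed animals ran from 678 to 1513 with a median of 1076. High-dosed animal 11, the lowest at 678, lay between controls 9 and 2, and the other 7 were above every control, with animal 4 the highest. Mean intensity was 629.5 ± 71.6 (SD, n = 3) for controls against 1071 ± 255 (SD, n = 8) for treated animals. This gave a log2 fold change of 0.69 ± 0.18, 1.61-fold higher, with all 8 high-dosed animals above the control mean (limma adjusted p = 0.0292). The call was lost without control 1 (0.63, limma adjusted p = 0.145) or control 9 (0.668, limma adjusted p = 0.0845). It was also lost within numbers 8 and above, where 1 control remained (0.57). The call was kept in 21 of the 24 other settings, but without control 2 only at the threshold (0.773, limma adjusted p of 0.05 as rounded).

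**Figure D3:**
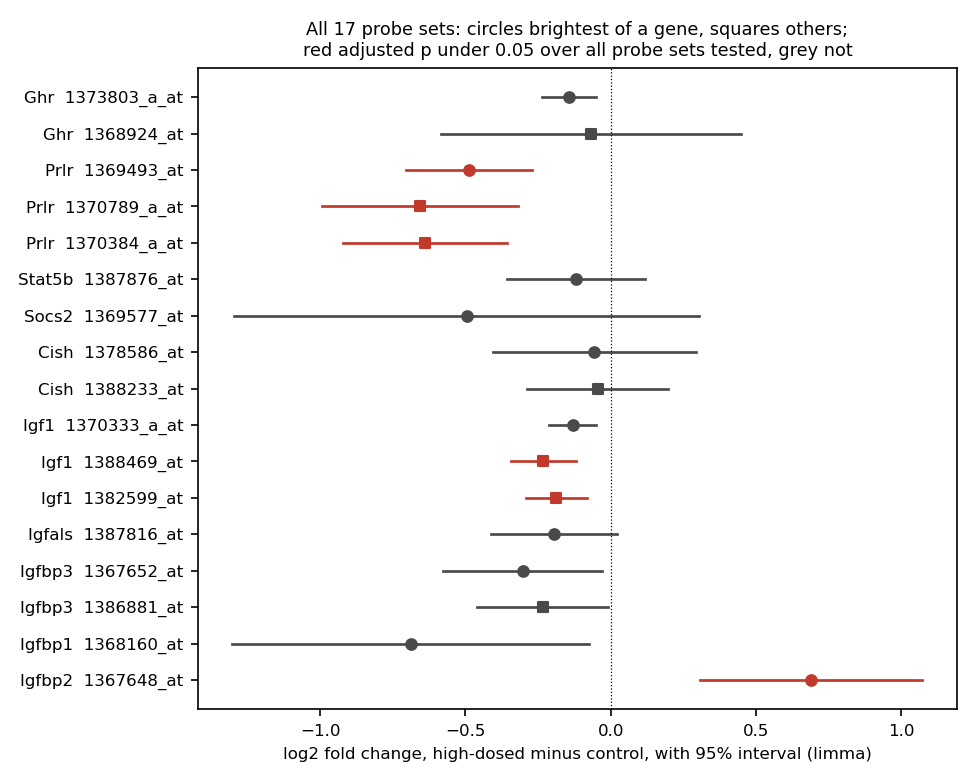
Log2 fold change of high-dosed minus control animals (x axis) with its 95% interval from limma for each of the 17 probe sets, ordered by role. Circles are the brightest probe set of a gene, squares the others, and red marks an adjusted p below 0.05 over all probe sets tested. Of the 17, 16 lie below 0, and 6 are red, 3 of Prlr, 2 of Igf1 and that of Igfbp2.

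Igfbp1 and Igfbp2, on opposite sides of 0 between the groups, shared some of their order within the treated group. Both were highest in high-dosed animal 4 and below the treated median in animals 3, 6 and 11. After taking out the group means, Pearson's r between them over the 11 arrays was 0.464 and Spearman's rho 0.636. Among all 45 pairs of the 10 genes, r was highest for Igfals with Cish, at 0.692 (rho 0.718), and 0.621 without the 2 arrays farthest out for Igfals. Igf1 with Socs2 came next at 0.674, but this fell to 0.23 without its 2 farthest arrays. The values of a pair come from the same arrays and so share each array's overall scale, and these coefficients are descriptions.

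Genes with the closest pattern to the 4 called members were taken by the same deviations from group means over 11 arrays. For Prlr they were Appl2 (r = 0.904), Gga2 (0.902) and Maged2 (0.862), and for Igfbp2 they were Fcgrt (0.897), Vps35l (0.883) and Hand2 (0.861). For Igf1 they were Gm2a (0.878), Ndufa13 (0.856) and Ass1 (0.853), and for Ghr they were Plxna2 (0.919), Psmd2 (0.914) and Lrp11 (0.902). Each is the top of a search over all genes tested, which makes high coefficients likely. Group means were taken out first, so a like gene need not change in the same direction between groups. Appl2, Gga2 and Maged2 were at log2 fold changes of 0.201, 0.111 and 0.267, where Prlr fell. Plxna2, Psmd2 and Lrp11, listed for Ghr, were at -0.417, -0.206 and 0.223.

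Other genes of receptor signalling showed no call. Of 18 tested genes of the JAK-STAT pathway and its brakes, among them the kinases Jak1, Jak2 and Tyk2, the factors Stat3 and Stat5a and the phosphatases Ptpn1, Ptpn2, Ptpn6 and Ptpn11, 0 rose, 0 fell and 18 did not pass, with a median log2 fold change of 0.05. Jak2, the kinase bound to both receptors, was at 0.19 with a limma adjusted p of 0.308. At an unadjusted p below 0.05 there was 1 of the 18, Pias3 (0.22, limma adjusted p = 0.139). Socs3 lay under the signal filter and was not tested.

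Of 8 tested genes of the wider IGF system, 0 rose and 0 fell, with a median of -0.063. Igf2r, which clears IGF-II, was at 0.19 ± 0.069 (limma adjusted p = 0.101) and Igf1r, the IGF-I receptor, at -0.07 (limma adjusted p = 0.657). Igf2r was also the 1 of the 8 with an unadjusted limma p below 0.05. Stc1, Stc2 and Igfbpl1 lay under the signal filter. Of 6 tested genes that answer growth hormone pulses within hours, such as Bcl6, Onecut1 and Egr1, 0 passed either way, with a median of -0.037. None of these 6 had an unadjusted limma p below 0.05.

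Of the genes known to differ between male and female rats, 2 that are higher in females fell. Cyp2c12, the cytochrome of female rat liver, stood at 17837 to 18507 in controls and 17497 to 19303 in high-dosed animals, and the cytochrome of male rat liver, Cyp2c11, at 216 to 306 and 180 to 347. Of the other male-biased genes, Cyp2a2 and Car3 were bright, at 4124 to 6376 and 6432 to 10167 in controls. Cyp2c13, Cyp3a2, Mup5 and Bcl6 were dim, at 542.8 or lower on every array. The labels gave no sex, and it was not inferred from these levels. Of 9 tested female-biased genes 0 rose, 2 fell and 7 did not pass (median -0.002), where 2.74% of all genes tested were called as lower. Their summed intensity was 100142 to 109958 in controls and 88983 to 97579 in high-dosed animals, without overlap. Both genes that fell are in this sum, so its lack of overlap is no separate result about the other 7. The 9 genes went both ways, with 6 log2 fold changes below 0 and 3 above. Of 7 tested male-biased genes 0 passed either way (median -0.064). Of the male-biased genes 3 had an unadjusted limma p below 0.05, Car3 (0.38) and Cyp3a2 (0.32) above 0 and Mup5 (-0.26) below, with adjusted p of 0.0916, 0.171 and 0.179. Such unadjusted values were common, as Igfbp3 at 0.034 ranked 2351 of all 10714 genes tested. Cytochromes of 1 subfamily are alike in sequence, and how well these probe sets tell them apart was not tested.

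Both genes that fell were taken from the female-biased list, so their bias was given in advance and is no result. Cyp3a9, a steroid-hydroxylating cytochrome, was at 13022, 12347 and 9609 in controls and from 2849 to 6715 in high-dosed animals, without overlap (log2 fold change -1.46 ± 0.25, limma adjusted p = 0.00408), and its call was lost within numbers 8 and above (-1.15, limma adjusted p = 0.156). A1bg, a plasma glycoprotein, was at 20348, 21058 and 15610 in controls and from 10800 to 16345 in high-dosed animals, where animal 10 overlapped control 9 (log2 fold change -0.49 ± 0.12, limma adjusted p = 0.0205). The call of A1bg was lost without control 1 (-0.432, limma adjusted p = 0.121) or control 2 (-0.407, limma adjusted p = 0.0912). With every animal it was lost after median centring (-0.449, limma adjusted p = 0.0627), and also within numbers 8 and above (-0.059, limma adjusted p = 0.691).

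Of 10 tested genes set by insulin, glucagon and fasting 2 rose, 0 fell and 8 did not pass, with a median of -0.019. Of all genes tested, 7.91% were called as higher and 2.74% as lower. Ppargc1a, the coactivator of fasting genes known as PGC-1α, was at 112, 128 and 182 in controls and from 265 to 489 in high-dosed animals, without overlap (log2 fold change 0.99 ± 0.14, limma adjusted p = 0.00183), and lost its call within numbers 8 and above (0.653). The other, Irs1, an insulin receptor substrate, passed the signal filter through the high-dosed group alone, so its call is no support for the list. It was at 93.2, 99.7 and 69.4 in controls and from 111 to 147 in high-dosed animals, without overlap (log2 fold change 0.36 ± 0.091, limma adjusted p = 0.0277). Its control mean lay under the filter value, the gene was not tested with the filter at the 60th percentile, and its call was lost without control 1 (limma adjusted p = 0.0846) or control 9 (limma adjusted p = 0.123), within numbers 6 and below (0.184) or 8 and above (0.673), and without high-dosed animals 8, 10 and 11 (0.278). Pck1, the gluconeogenic enzyme that insulin suppresses together with Igfbp1, was at 0.02 (limma adjusted p = 0.905), and Foxo1, the factor that binds the insulin response element, at -0.19 (limma adjusted p = 0.481).

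**Figure D4:**
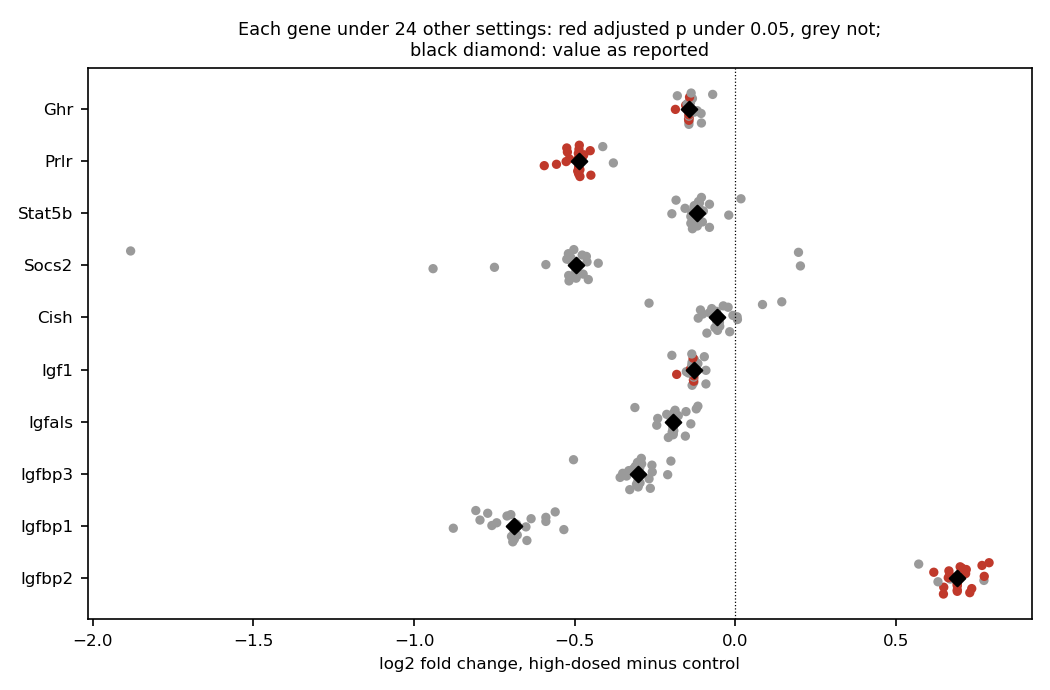
Log2 fold change of high-dosed minus control animals (x axis) of the 10 genes as reported (black diamonds) and under each of 24 other settings (dots, red where the adjusted p is below 0.05). The dots of Prlr and Igfbp2 are mostly red, those of Ghr and Igf1 mostly grey, and Socs2 moves from -1.88 to 0.202.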

How the data were processed

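The values used were the deposited linear intensity of each of 31099 probe sets on 11 rat arrays, 1 per animal. MAS5 is named, per the submitters' processing notes, without a version or role; per the labels, RNA was extracted with Trizol and labelled with biotin. How arrays were scaled was not given in the sources used here, and the values were used as deposited. Medians per array ran from 149 to 186.6. Precision is limited by the number of arrays, above all by the 3 controls.

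The pseudocount of 55.26 was the 20th percentile of all values. Fold changes on this scale understate those of dim genes. After leaving out 57 Affymetrix control probe sets and those whose mean log2 signal lay below the 40th percentile (7.40), 18625 probe sets and 10714 genes were tested in limma 3.58.1 under R 4.3.3, with an intensity trend of the variance, two-sided. Gene names came from the platform annotation; all 17 probe sets of the members matched the RefSeq gene table by Entrez identifier and symbol. The script was tested on simulated data. The members and lists were chosen with earlier results of these data known. Named beside the 10 members were up to 4 called genes of each list, the 3 genes most like each of the 4 members with the smallest adjusted p, and a few genes chosen after their values were seen. The 24 other settings covered scaling, filter, pseudocount, variance model, choice of probe set, each animal left out and animal number.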

Additional observations from a re-analysis of the deposited data

How the results depend on the processing

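Of the 4 called genes, Prlr and Igfbp2 stayed called in 22 and 21 of the 24 other settings, Igf1 in 8 and Ghr in 7, and all 4 kept their direction in every setting. The count of called members was 2 after quantile normalization, after median centring, without a filter, without a variance trend, within numbers 6 and below and without high-dosed animals 8, 10 and 11, and 0 within numbers 8 and above, where 1 control remains and is taken to vary like the others. Leaving out 1 animal gave counts of 1 to 4 for members and 325 to 1406 for all genes. All-gene counts were 612 within numbers 6 and below, 3 within numbers 8 and above and 716 without animals 8, 10 and 11. With animal number as a block, 4 members were called. Among genes that did not pass, Cish changed sign (0.084 within numbers 6 and below, 0.144 without animals 8, 10 and 11, and from -0.116 to 0.006 over single animals left out), as did Socs2 (0.196 within numbers 6 and below, where control 9 is absent, and from -0.941 to 0.202 over single animals left out) and Stat5b (0.017 within numbers 8 and above); none of these was called. Beyond the samples left out, the cause was not tested. No paired analysis was possible because the groups share 1 animal number, 2. The median of all genes moved by less than 0.1 under every scaling.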

Other observations

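The 10 genes differed widely in how steady they were between animals of a group. The SD around the group means was 0.0534 on the log2 scale for Igf1 and 0.0555 for Ghr, against a median of 0.137 over all genes tested, and 0.303 for Igfbp2, 0.504 for Igfbp1 and 0.655 for Socs2. The calls of Igf1 and Ghr therefore concern log2 differences of 0.13 and 0.14 on brightest probe sets of small spread. Igfbp1, with a larger mean difference than Prlr, was not called. The spreads of Igf1 and Ghr lay at percentiles 3.22 and 3.6 among all genes tested. Among genes of similar signal they lay at 19.7 and 21.1, so they stood out less there. The dimmer probe set of Ghr was not steady, with high-dosed animals from 590 to 1720.

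A pair of regulators of sex-dependent liver genes that are known as female-biased in liver stood above 0, opposite in sign to Cyp3a9, A1bg and Prlr. Cux2, a repressor, was at 0.31 ± 0.096 and Trim24, a coregulator, at 0.21 ± 0.070, and neither passed (limma adjusted p = 0.0614 and 0.0766). Both were named after their values were seen.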
